A study of Mus musculus with 6 samples.

Results

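The genes described here encode the granule proteases of killer lymphocytes and the proteins that carry, deliver or block them. They are the granzymes Gzma, Gzmb, Gzmc, Gzmk and Gzmm, perforin (Prf1), the granule proteins Nkg7 and Srgn, and the serpins Serpinb9 and Serpinb6b. They were chosen by symbol, each symbol matched 1 gene, and they make up 10 of the 55450 genes in the count table. RNA was sequenced in bulk from lymphocytes sorted out of the mammary glands of pregnant mice at E18.5, late in gestation. Of the 6 libraries, 3 are labelled CD8 beta+ T cells (CD8b hereafter) and 3 are labelled DN, or double negative, NK1.1+ cells (DN hereafter). The pair of markers that DN cells lack is not named, the cells are called lymphocytes in one label and T cells in another, and strain, genotype and maternal age are not given. The study asked whether unconventional lymphocytes of the mammary epithelium act on epithelial and basal cell differentiation.

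Killer lymphocytes store granzymes, which are serine proteases, in secretory granules on a proteoglycan matrix. When the granules are released against a target cell, perforin opens its membrane and lets the granzymes in, where they cut proteins and bring about cell death. The killer cell is itself exposed to these proteases, and serpins of clade B in its cytosol bind and inactivate granzymes that leak from the granules.

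Libraries held 7961360 to 14367299 counts. The genes of the markers that name the groups, CD8 beta and NK1.1, followed the labels: Cd8b1 was at 949 ± 57.8 CPM (counts scaled to library size with TMM factors, mean ± SD, n = 3) in CD8b and 2.57 ± 1.58 CPM in DN libraries, and Klrb1c, which encodes NK1.1, a receptor of NK cells and some T cells, at 37.1 ± 5.68 and 639 ± 20.8 CPM. Cd8a, for the CD8 alpha chain, was at 911 ± 85.8 CPM in the first group and still at 174, 161 and 151 CPM in the libraries labelled double negative. The summed level of 6 markers listed for CD8 T cells ran from 3550 to 3790 CPM in CD8b and from 1062 to 1096 CPM in DN libraries. This sum includes Cd8b1 and Cd8a, so it partly restates the labels. Of the others, Cd3e, for a chain of the T cell receptor complex, was at means of 765 and 522 CPM. Trac was at 649 and 241 CPM, Trbc2 at 262 and 144 CPM and Cd5 at 159 and 10.1 CPM. For 7 markers of NK cells and type 1 innate lymphoid cells, Klrb1c among them, the ranges were 318 to 385 and 2549 to 2769 CPM. For 4 γδ T cell markers they were 40.2 to 52.6 and 260 to 298 CPM. Replicate 3 stood apart in both groups in 4 myoepithelium markers, whose summed level was 12.1, 9.61 and 101 CPM in CD8b and 6.64, 12.99 and 116 CPM in DN libraries. With either replicate 3 left out, each granule gene kept its call or lack of one. The sum of 8 luminal epithelium and milk markers was larger, at 779, 493 and 650 CPM in CD8b and 271, 756 and 1573 CPM in DN libraries. Its part in the granzyme results was not tested. In bulk RNA, fewer cells that express a gene and less of its RNA per cell cannot be told apart. CD8b values are given first throughout, fold changes are DN over CD8b, and adjusted p-values come from the quasi-likelihood test of edgeR and cover all tested genes (Benjamini-Hochberg). Whether replicates came from different animals is not stated in the labels. The p-values therefore reflect only the scatter of these samples, part or all of which may be technical.

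Granzyme B was the most counted granzyme in both groups, and the granzymes beside it differed. In DN libraries Gzma, Gzmb and Gzmc were higher, Gzmk and Gzmm were lower, and Prf1, Srgn and both serpin genes were higher. All 10 genes were tested, among 13171 genes in all. Of the 10, 7 were higher (7.84% of all tested genes), 2 were lower (5.99%) and 1, Nkg7, was not called, so that 9 changed in either direction (13.8%). The groups did not overlap for 9 of the 10, as for 30.6% of all tested genes. Gzmc, among the 7 and the 9, passed the filter only through its DN counts, so its direction was nearly set beforehand. The median log2 fold change of the 10 genes was 1.12, and that of all tested genes was −0.0033. The 10 genes were chosen with earlier results of these data known, so these counts describe them and test nothing. The plot of levels by library shows the changes against the scatter of the libraries.

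**Figure D1:**
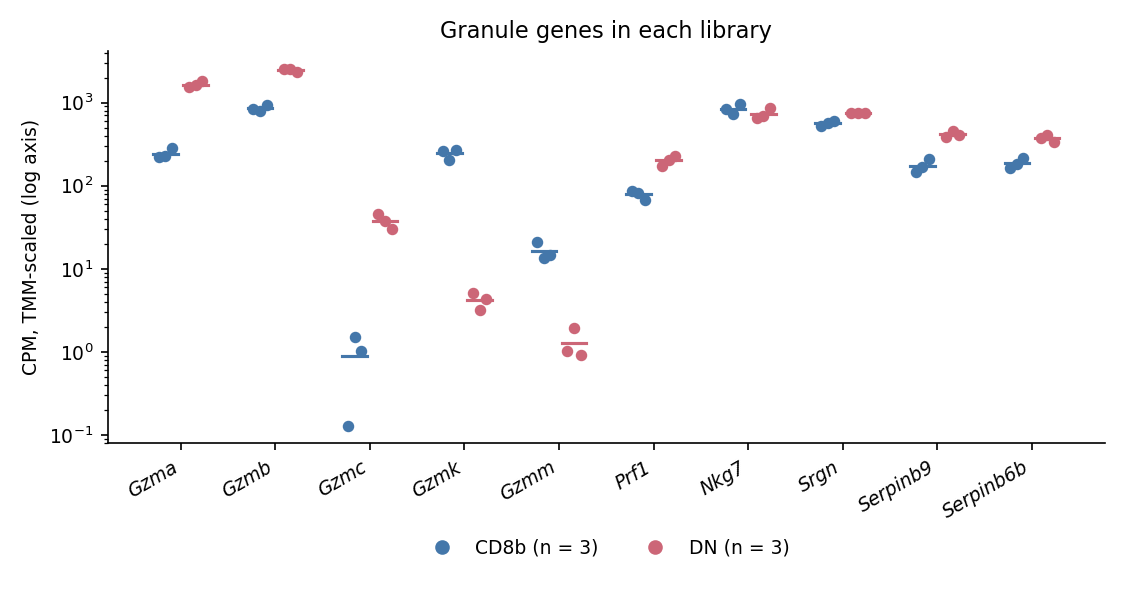
Level of each gene in each library, in CPM on TMM-scaled library sizes (log axis), with a dot for each of the 3 CD8b and 3 DN libraries and a line at each group's mean. Gzmk sits at 206 to 266 CPM in CD8b and at 3.18 to 5.17 CPM in DN libraries, Gzmc goes the other way, and the Nkg7 values overlap.

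The genes, all protein-coding, lie at few places in the genome (build mm10). Gzma (chr13:113093825-113100981) and Gzmk (chr13:113171608-113225908) are neighbours on the minus strand of chromosome 13. Gzmc (chr14:56231441-56234656) and Gzmb (chr14:56258838-56262260) lie in the granzyme cluster of chromosome 14, also on the minus strand. Serpinb6b (chr13:32965209-32979067) and Serpinb9 (chr13:33003250-33017957) are neighbours on the plus strand. Prf1 (chr10:61297833-61304680), Srgn (chr10:62493833-62527451) and Gzmm (chr10:79689020-79695261) share chromosome 10 at a distance, and Nkg7 (chr7:43437073-43438249) lies on chromosome 7.

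The stretch of 250 bases before the start of transcription is shown for granzymes that lie in one cluster and differed in level: Gzma and Gzmk, neighbours that moved in opposite directions, Gzmb and Gzmc, and Gzme, which had 0 counts in every library. Sequences are from RefSeq on GRCm38.p6, are written 5′ to 3′ on the gene's own minus strand, and hold no base of an annotated exon. The RefSeq start of Gzmk lies inside the longer annotated locus given above. Capitals mark the core of RUNX sites (TGTGGT) and of T-box sites (AGGTGT) on either strand. RUNX and T-box proteins are transcription factors that act on granzyme and perforin genes in killer lymphocytes.
Gzma: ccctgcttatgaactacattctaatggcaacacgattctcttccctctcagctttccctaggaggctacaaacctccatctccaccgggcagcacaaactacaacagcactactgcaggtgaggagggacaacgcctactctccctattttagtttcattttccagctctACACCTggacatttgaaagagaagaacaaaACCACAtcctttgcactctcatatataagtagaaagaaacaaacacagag
Gzmk: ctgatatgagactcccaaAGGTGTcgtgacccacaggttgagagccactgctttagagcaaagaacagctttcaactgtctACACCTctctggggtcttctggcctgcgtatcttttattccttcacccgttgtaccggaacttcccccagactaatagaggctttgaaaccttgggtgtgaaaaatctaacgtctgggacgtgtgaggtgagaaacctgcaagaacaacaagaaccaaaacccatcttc
Gzmb: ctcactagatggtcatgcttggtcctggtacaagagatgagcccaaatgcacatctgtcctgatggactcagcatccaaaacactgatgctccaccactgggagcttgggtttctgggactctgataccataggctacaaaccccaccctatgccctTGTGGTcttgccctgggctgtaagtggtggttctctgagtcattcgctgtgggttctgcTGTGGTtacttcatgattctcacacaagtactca
Gzmc: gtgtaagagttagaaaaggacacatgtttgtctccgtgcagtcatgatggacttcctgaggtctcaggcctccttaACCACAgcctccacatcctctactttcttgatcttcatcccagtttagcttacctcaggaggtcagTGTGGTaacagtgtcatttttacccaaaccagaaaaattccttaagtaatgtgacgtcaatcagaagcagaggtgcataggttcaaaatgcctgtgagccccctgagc
Gzme: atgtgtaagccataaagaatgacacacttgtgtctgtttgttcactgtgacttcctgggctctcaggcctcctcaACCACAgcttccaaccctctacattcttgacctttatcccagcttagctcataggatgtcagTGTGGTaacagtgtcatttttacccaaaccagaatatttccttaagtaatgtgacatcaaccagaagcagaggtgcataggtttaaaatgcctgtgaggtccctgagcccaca

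The windows before Gzma and Gzmk, at chr13:113100982-113101231 and chr13:113180966-113181215, both hold T-box cores, 1 and 2 of them. A RUNX core is found in that of Gzma, and these letters are not in that of Gzmk. The windows before Gzmb, Gzmc and Gzme, at chr14:56262335-56262584, chr14:56234658-56234907 and chr14:56120626-56120875, hold 2 RUNX cores each. That of Gzmc also holds the CRE letters TGACGTCA, and that of Gzmb the AP-1 letters TGANTCA. The CRE letters also occur once each in the windows of Gzmg, which had 0 counts in every library, and of Gzmf, which had 5 counts in all. Aligned with each other, the windows of Gzmc and Gzme were identical at 81.8% of positions, whereas those of Gzmc and Gzmb were at 50.2% and those of Gzma and Gzmk at 50%. The windows of Gzma and Gzmb, which lie on different chromosomes, were also identical at 50% of positions. Of all 32851 windows of 250 bases, 14.1% hold the RUNX core, 11.8% the T-box core, 6.75% the AP-1 letters and 1.55% the CRE letters. No marked cores overlap each other in the windows shown. Such a match describes the letters only, and factor binding was not measured here.

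Gzmb encodes granzyme B, which cuts after aspartate and activates caspases. It was at 832, 797 and 945 CPM in the CD8b libraries and at 2564, 2502 and 2337 CPM in the DN libraries. Every DN library was thus far above every CD8b library, and the means of 858 ± 77.3 and 2468 ± 117 CPM differed 2.88-fold (log2 fold change 1.52, SE 0.104, adjusted p = 7.75e-08). Gzma encodes granzyme A, a tryptase that forms dimers. It was at 220, 226 and 281 CPM against 1539, 1615 and 1797 CPM. The lowest DN library was well above the highest CD8b library, and the means of 242 ± 33.8 and 1650.3 ± 133 CPM differed 6.81-fold (log2 fold change 2.77, 95% interval 2.51 to 3.02, SE 0.120, adjusted p = 4.57e-10).

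Gzmc, for the rodent enzyme granzyme C, was close to absent from CD8b libraries, with 1, 21 and 10 counts, and had 535, 445 and 402 counts in DN libraries. These are 0.130, 1.52 and 1.03 CPM against 46.1, 37.3 and 30.5 CPM. The groups did not overlap, and the log2 fold change was 5.25 (SE 0.416, adjusted p = 5.42e-06), a 38.2-fold difference. Gzmc passed the filter only through its DN counts, so its direction was nearly set beforehand. With so few counts on the lower side the size of the difference is loosely set, and the log2 fold change was 4.85 without CD8b replicate 1 and 5.90 without CD8b replicate 2. The rest of the granzyme cluster around it was not detected at this depth or nearly so. Gzmd, Gzme, Gzmg and Gzmn had 0 counts in all 6 libraries, which allows up to 0.217 to 0.390 CPM per library at a limit of 3 counts. Gzmf had 2 counts in CD8b replicate 3, 3 counts in DN replicate 2 and 0 elsewhere. These paralogs are alike: 4.14% of the 50-base words of Gzmc transcripts also occur in another gene, mainly Gzme, Gzmg and Gzmd, and 19.4% to 21.9% of those of Gzmd, Gzme, Gzmf and Gzmg do. How reads that fit several genes were counted is not given in the sources used here. For Gzma, Gzmb, Gzmk, Gzmm, Prf1, Nkg7 and Srgn no such word is shared.

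Gzmk encodes granzyme K, a tryptase close to granzyme A. It had 2012, 2854 and 2586 counts in CD8b libraries and 60, 38 and 57 counts in DN libraries, or 262, 206 and 266 against 5.17, 3.18 and 4.32 CPM. All 3 DN libraries were far below the others, and the 57.7-fold lower mean (log2 fold change −5.85, SE 0.172, adjusted p = 8.39e-12) stood against the rise of its neighbour Gzma. Esm1, whose locus overlaps that of Gzmk on the opposite strand with no exon in common, had 21, 48 and 32 counts against 0, 0 and 4. Gzmm, for granzyme M, which cuts after methionine and leucine, had 161, 186 and 141 counts against 12, 23 and 12. At 20.9, 13.4 and 14.5 against 1.03, 1.93 and 0.910 CPM it too was lower in every DN library (12.5-fold, log2 fold change −3.65, SE 0.366, adjusted p = 5.16e-06).

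The mixture of granzymes differed between the groups, mainly in granzymes A and K. Gzma took 16.5%, 18.2% and 18.6% of all granzyme counts in CD8b libraries and 37.0%, 38.8% and 43.1% in DN libraries, a mean of 17.8% ± 1.14 against 39.7% ± 3.12. Gzmk took 19.6%, 16.6% and 17.7% against 0.124%, 0.0766% and 0.104%, a mean of 17.9% ± 1.53 against 0.102% ± 0.0240. Granzyme K thus held a share of counts near that of granzyme A in CD8b libraries and a far smaller one in DN libraries. Gzmb was the most counted granzyme in all 6 libraries, with 62.3%, 64.1% and 62.6% against 61.7%, 60.2% and 56.0%. Its share was lower by 3.71 percentage points in DN libraries although its own level was higher, and the groups were separated only narrowly.

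Gzmm held 1.57%, 1.08% and 0.963% against 0.0249%, 0.0463% and 0.0218%. Gzmc held 0.00974%, 0.122% and 0.0683% against 1.11%, 0.896% and 0.731%. These minor enzymes traded places, each at 0.122% or below in every library of one group. No share overlapped between groups, and each of the 5 reached an exact two-sided permutation p of 0.1 (0.1 after Benjamini-Hochberg adjustment), the smallest that 3 against 3 libraries can give. The shares of a library are parts of 1 total, so the 5 tests are not independent. Granzyme totals of 10264 to 54979 counts per library kept every 95% Wilson interval of a share within 1.87 percentage points. The share of Gzmc in CD8b replicate 1, from 1 count, has an interval of 0.00172% to 0.0552%. For Gzmb the intervals of CD8b replicate 1, 61.4% to 63.3%, and DN replicate 1, 61.3% to 62.1%, overlap. These intervals cover counting error only.

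Counts favour long transcripts, so the shares were also taken per exon length. On that scale Gzma held 23.4% against 48.1% and Gzmb 58.2% against 50.5%, which brought both enzymes close to equal in DN libraries. Gzmk held 17.1% against 0.0894%, so that per length its share was below that of Gzma in CD8b libraries too. The difference for Gzma was 24.7 percentage points per exon length and 21.9 by counts, and for Gzmb −7.74 and −3.71.

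**Figure D2:**
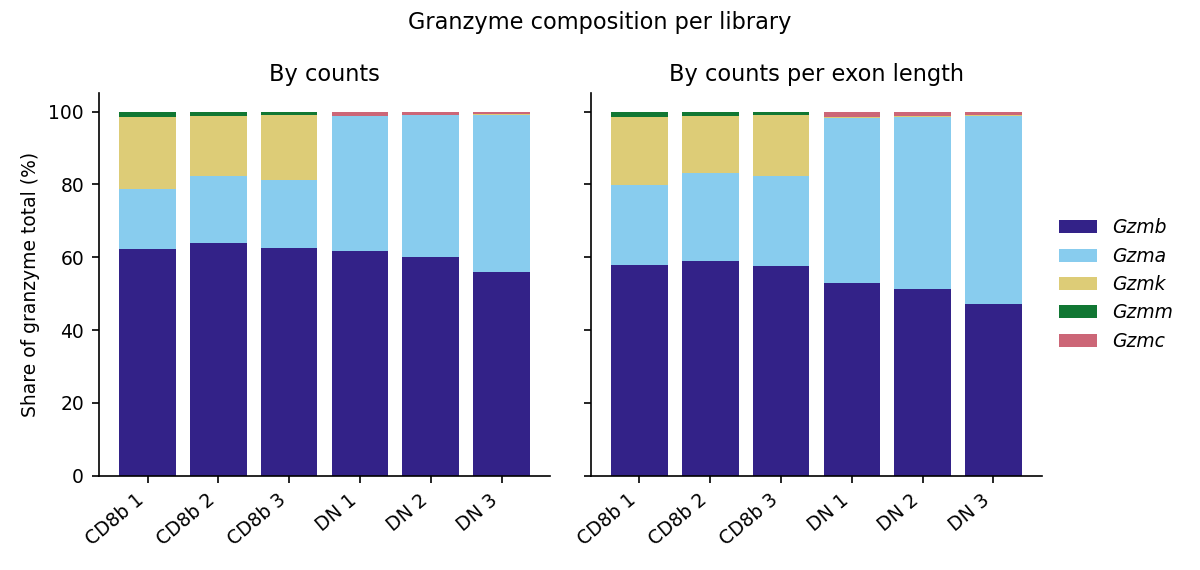
Share of each granzyme in the granzyme total of each library, in percent, by counts (left) and by counts per exon length (right), with 3 CD8b and 3 DN libraries. The Gzmk layer of 16.6% to 19.6% by counts in CD8b libraries is 0.124% or less in DN libraries, where Gzma takes 37.0% to 43.1%.

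The summed granzyme level was 1334, 1244 and 1508 CPM in CD8b libraries and 4155, 4159 and 4170 CPM in DN libraries. The DN libraries were nearly equal to each other and 3.06-fold above the CD8b mean. Granzymes were 0.134% of all counts in CD8b and 0.422% in DN libraries.

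Prf1 encodes perforin, the pore-forming protein. It was at 87.0, 82.4 and 68.2 CPM against 173, 202 and 229 CPM. Every DN library was higher, and the 2.54-fold difference (log2 fold change 1.35, SE 0.124, adjusted p = 2.07e-06) stands beside 2.88-fold for Gzmb. Within a library the ratio of Prf1 to Gzmb counts was 0.105, 0.103 and 0.0722 against 0.0675, 0.0808 and 0.0978. These ratios overlapped between groups, with a mean log2 difference of −0.18 (exact permutation p = 0.5).

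Nkg7, a membrane protein of cytotoxic granules that takes part in their release, was at 838, 738 and 963 CPM against 660, 683 and 866 CPM. It was the 1 gene of the 10 whose groups overlapped, and it did not pass the test (log2 fold change −0.20, SE 0.124, adjusted p = 0.358). The 95% interval of its fold change ran from 0.724 to 1.05. The ratio of Prf1 to Nkg7 was higher in every DN library, at 0.104, 0.112 and 0.0708 against 0.263, 0.296 and 0.264 (log2 difference 1.55, exact permutation p = 0.1, adjusted 0.14 over 7 ratios). Srgn encodes serglycin, the proteoglycan on which granzymes and perforin are packed. It was at 520, 572 and 604 CPM against 758, 755 and 753 CPM. The groups were apart and the DN libraries nearly equal, but the difference was small, 1.34-fold (log2 fold change 0.42, SE 0.0931, adjusted p = 0.00643). Leaving out CD8b replicate 1 ended its call (adjusted p = 0.0623, with 2.83e-05 to 0.0623 over all alternatives). The DN libraries had fewer Srgn counts per granzyme count, without overlap: there were 0.390, 0.460 and 0.401 Srgn counts per granzyme count in CD8b and 0.182, 0.182 and 0.181 in DN libraries (log2 difference −1.20, exact permutation p = 0.1, adjusted 0.14).

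Serpinb9 encodes the mouse inhibitor of granzyme B in the cytosol of killer cells. It was at 147, 167 and 210 CPM against 390, 459 and 407 CPM. Each DN library was above each CD8b library, and the difference was 2.40-fold (log2 fold change 1.26, SE 0.124, adjusted p = 5.01e-06). Serpinb6b, a clade B serpin next to it, was at 164, 180 and 217 CPM against 375, 404 and 331 CPM, a 1.98-fold difference without overlap (log2 fold change 0.98, SE 0.115, adjusted p = 2.43e-05). Of the 50-base words of Serpinb6b transcripts, 2.92% occur in another gene, and 0.378% of those of Serpinb9 do.

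The ratio of each serpin to Gzmb was compared within each library, which does not depend on scaling. Ratios of the serpins to other granzymes were not taken. Gzma was 6.81-fold higher in DN libraries and Gzmb 2.88-fold, so the ratios to Gzmb do not stand for those to Gzma. The ratio of Serpinb9 to Gzmb counts was 0.177, 0.210 and 0.222 against 0.152, 0.184 and 0.174, with overlap between groups and a log2 difference of −0.25 (exact permutation p = 0.2, adjusted 0.233). The ratio of Serpinb6b to Gzmb was 0.198, 0.226 and 0.230 against 0.146, 0.162 and 0.142, lower in every DN library (log2 difference −0.54, exact permutation p = 0.1, adjusted 0.14). Between the proteases the shifts were larger. The ratio of Gzma to Gzmb was 0.264, 0.284 and 0.298 against 0.600, 0.645 and 0.769, and that of Gzmk to Gzma was 1.19, 0.913 and 0.947 against 0.00336, 0.00197 and 0.00241 (log2 differences 1.25 and −8.65, exact permutation p = 0.1 for both, adjusted 0.14). The plot of ratios sets the shifts between granzymes beside the smaller ones between the serpins and Gzmb.

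**Figure D3:**
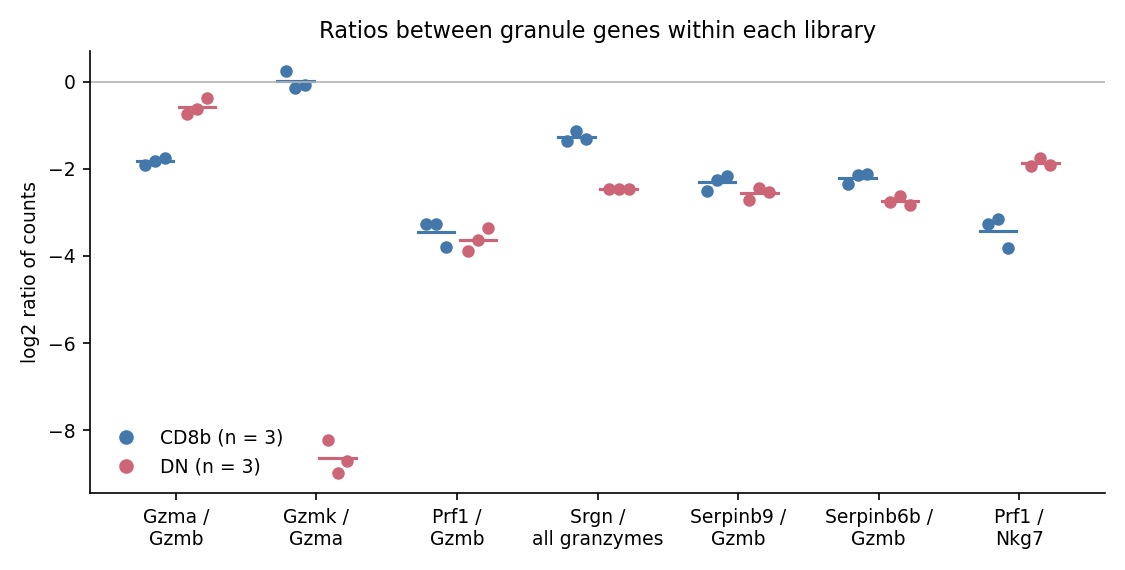
Log2 ratio of counts between pairs of genes within each library, with a dot for each of the 3 CD8b and 3 DN libraries and a line at each group's mean. The ratios of Prf1 and Serpinb9 to Gzmb overlap between groups, while the ratio of Gzmk to Gzma differs by 8.65 on the log2 scale.

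**Figure D4:**
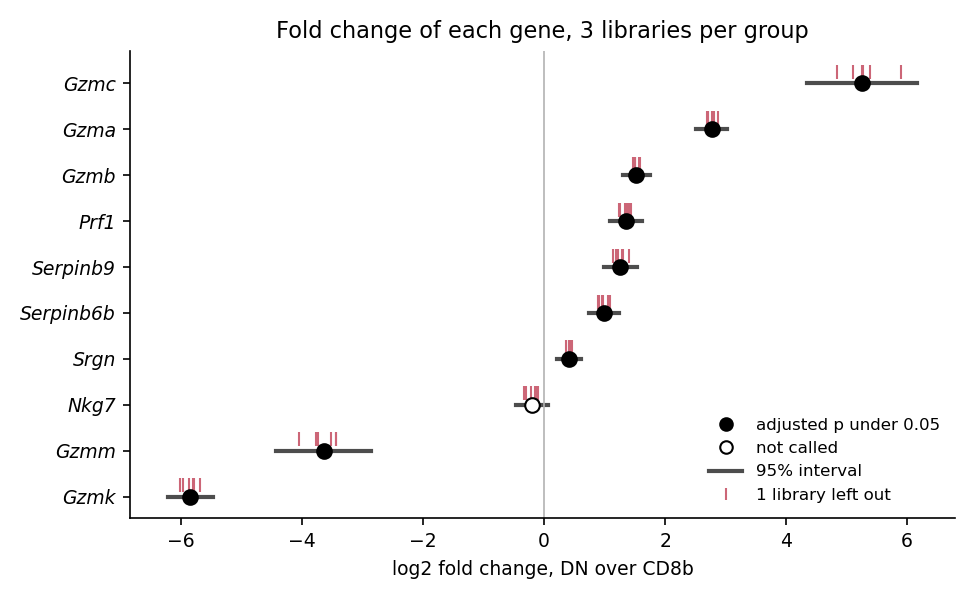
Log2 fold change of each gene, DN over CD8b (3 libraries each), with the 95% interval as a bar, filled dots for adjusted p under 0.05 and ticks for the values with 1 library left out. Estimates run from −5.85 for Gzmk to 5.25 for Gzmc, and the interval of Nkg7, from −0.47 to 0.06, holds 0.

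Levels can be set against each other only per length. In CPM per kilobase of exon, the CD8b order was Nkg7 (926 ± 123), Gzmb (597 ± 53.9), Srgn (258 ± 19.4), Gzma (241 ± 33.6) and Gzmk (176 ± 24.1), followed by Serpinb6b (82.7), Serpinb9 (49.98), Prf1 (30.6), Gzmm (11.1) and Gzmc (0.998). Srgn and Gzma did not differ beyond their spread. In DN libraries the order was Gzmb (1718 ± 81.6), Gzma (1640 ± 132), Nkg7 (805 ± 124), Srgn (344 ± 1.05), Serpinb6b (164), Serpinb9 (120), Prf1 (77.9), Gzmc (42.5), Gzmk (3.04) and Gzmm (0.877). Gzmb and Gzma did not differ beyond their spread there. Ranked by this measure among the 13171 tested genes, Gzma moved from place 187 to place 31, Gzmb from 96 to 30 and Gzmc from 10513 to 884. Gzmk moved from place 238 to 7594 and Gzmm from 3510 to 10883, while Nkg7 held place 60 in both groups.

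Serpinb9b, a clade B serpin beside Serpinb9 (chr13:33027416-33041884, plus strand), was nearly absent from CD8b libraries, with 0, 0 and 5 counts against 264, 230 and 235. The ratio of summed counts was 124 (exact 95% interval 52.9 to 383, log2 fold change 6.85 with adjusted p = 1.43e-05). The interval treats pooled reads as independent, so it covers counting error only and not the spread between libraries. All 5 low counts lay in CD8b replicate 3, and with that library left out Serpinb9b was at least 142-fold higher (bound from 3 counts over the group). Of its 50-base words, 5.38% are shared with another gene, Serpinb9 among them. It was the only one of 3 other clade B serpins tested, of 20 in the table, that was called (13.8% of all tested genes were). Serpinb9b passed the filter only through its DN counts. Serpinb6a stood at 23.2 ± 1.20 and 25.9 ± 3.33 CPM (adjusted p = 0.644), and 10 of the 20 had 0 counts.

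Related genes that act in making and releasing granules were counted in the same fit. The lists here and below were also chosen with earlier results of these data known, so their counts are descriptive. Of 14 granule maturation genes tested, 4 were higher and 0 lower, against 7.84% and 5.99% of all tested genes. The median log2 fold change was 0.25, against −0.0033 over all genes. Lamp2, a lysosomal membrane protein, rose from 58.4 ± 9.75 to 90.9 ± 6.19 CPM (log2 fold change 0.64, adjusted p = 0.00345). Ctsc, for cathepsin C, which removes the propeptide of granzymes, was at 148 ± 6.58 and 193 ± 15.04 CPM (adjusted p = 0.0135), Ctsw, for a cathepsin of killer cells, at 389 ± 26.2 and 532 ± 40.9 CPM (0.00494) and Calr, for calreticulin, at 355 ± 17.6 and 442 ± 44.7 CPM (0.0461). The calls of Ctsc, Ctsw and Calr ended when 1 library was left out: CD8b replicate 2 for each of them, CD8b replicate 1 and DN replicate 2 for Ctsc and Calr, and DN replicate 1 for Calr. The call of Calr also ended under RLE scaling, upper-quartile scaling and the fit without robust estimation.

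Of 15 granule exocytosis genes tested, 5 were higher and 0 lower (median 0.06), against 7.84% and 5.99% of all tested genes. Sytl3 and Sytl2, for synaptotagmin-like proteins that bind Rab27 on vesicles, rose from 66.1 ± 6.57 to 132 ± 9.45 CPM (log2 fold change 0.997, adjusted p = 1.47e-05) and from 114 ± 21.4 to 207 ± 11.5 CPM (0.86, adjusted p = 1.68e-04). Snap23, a SNARE of the plasma membrane, and Rab11a, a GTPase of recycling endosomes, had log2 fold changes of 0.76 and 0.63 (adjusted p = 0.00132 and 0.00282). Rab27a, for the GTPase that docks the granules, stood at 114 ± 7.39 and 110 ± 7.18 CPM (adjusted p = 0.815). Unc13d, for the priming factor Munc13-4, stood at 65.8 ± 2.20 and 68.7 ± 19.2 CPM (0.872).

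Of 17 genes for the sugar chains of serglycin, 4 were higher and 2 lower (median 0.12), against 7.84% and 5.99% of all tested genes. Those with the largest change were Chst15 and Xylt1, which add sulfate and the first sugar to such chains, with log2 fold changes of −1.47 and −1.33 (adjusted p = 4.79e-04 and 5.92e-04). Chst12 and Chst11, sulfotransferases of chondroitin, rose by 1.06 and 0.62 (adjusted p = 0.00145 and 9.06e-04). Of 18 granzyme substrates and death pathway genes, 1 was higher and 0 lower (median 0.07), near the shares of 7.84% and 5.99% over all tested genes. That gene, Casp9, an initiator caspase, had a log2 fold change of 0.92 (adjusted p = 0.0196), and its call ended without CD8b replicate 2 or 3 or DN replicate 1 or 2.

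Killer lymphocytes also act through ligands and cytokines, whose genes moved in both directions. Of 6 genes for death ligands and related cytokines, 1 was higher and 2 lower (median −0.47), against 7.84% and 5.99% of all tested genes. Tnfsf10, for TRAIL, rose from 141 ± 15.1 to 253 ± 18.3 CPM (log2 fold change 0.84, adjusted p = 4.08e-05). Tnf fell from 38.8 ± 4.39 to 18.6 ± 3.84 CPM (log2 fold change −1.06, adjusted p = 0.00101) and Ltb, for lymphotoxin beta, from 46.9 ± 8.92 to 23.6 ± 6.91 CPM (−0.99, adjusted p = 0.00845). Leaving out CD8b replicate 1 ended the call of Ltb (adjusted p = 0.0503, with 2.26e-07 to 0.0503 over all alternatives). Fasl, for the Fas ligand, was at 96.3 ± 14.3 and 116 ± 5.98 CPM (adjusted p = 0.161). Ifng, for a cytokine, and Lta were not called either. Their log2 fold changes were −0.47 and −0.46 (adjusted p = 0.0710 and 0.804), and the median lies between these values.

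Of 14 transcription factors that act on granzyme and perforin genes, 3 were higher and 3 lower (median 0.15), against 7.84% and 5.99% of all tested genes. Tcf7, which encodes the stem-like factor TCF1, fell from 297 ± 70.9 to 121 ± 11.4 CPM (log2 fold change −1.29, adjusted p = 4.97e-04). Foxo1, which acts in quiescent cells, fell from 303 ± 37.7 to 176 ± 7.44 CPM (−0.78, adjusted p = 8.34e-05). Bhlhe40 and Zeb2, factors of effector and resident cells, rose by 0.72 and 0.65 (adjusted p = 0.00347 and 0.00730), and the call of Zeb2 ended without CD8b replicate 1 or 2. Prdm1 was also called and fell from 76.6 ± 19.2 to 52.8 ± 0.998 CPM (−0.54, adjusted p = 0.0282). Zfp683 rose from 39.1 ± 9.66 to 57.2 ± 5.80 CPM (0.55, adjusted p = 0.0387). The calls of Prdm1 and Zfp683 each ended under several alternatives. Factors of the T-box and RUNX families did not pass the test: Tbx21, for T-bet, at 160 ± 36.1 and 230 ± 35.7 CPM (adjusted p = 0.0572), Eomes at 173 ± 2.39 and 190 ± 10.1 CPM (0.392) and Runx3 at 161 ± 9.29 and 162 ± 13.7 CPM (0.971).

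**Figure D5:**
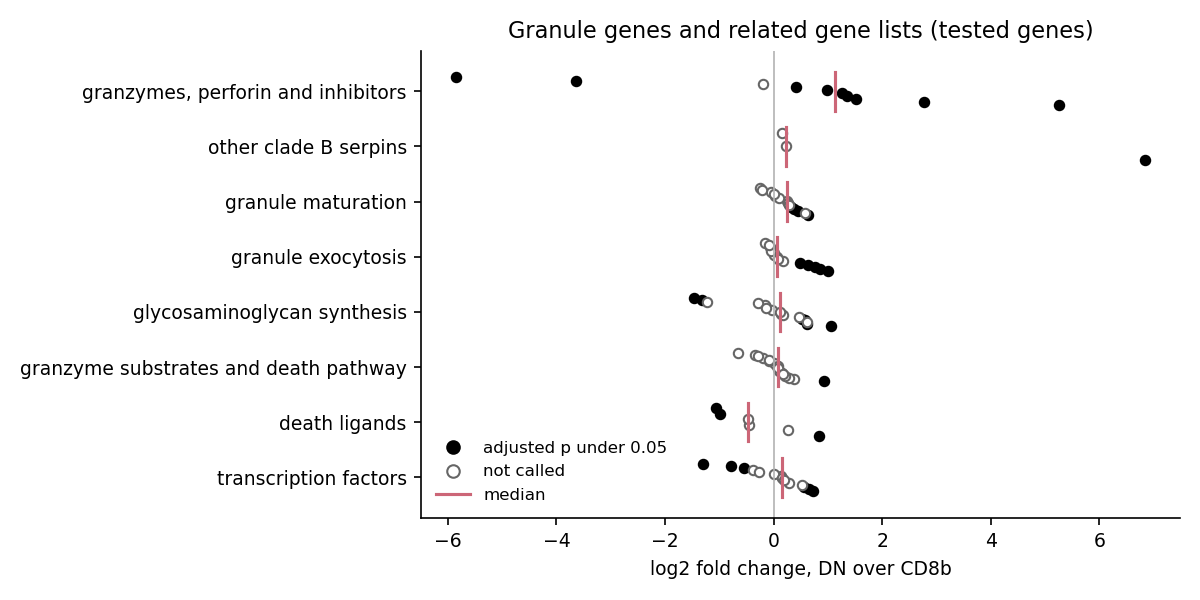
Log2 fold change, DN over CD8b (3 libraries each), of the 10 granule genes in the top row and of the tested genes of each related list below, with filled dots for adjusted p under 0.05 and a line at each median. The top row has its median at 1.12 and runs from −5.85 to 5.25, and the medians of the other lists lie between −0.47 and 0.25.

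Granzymes and mast cell proteases are encoded in the same cluster of chromosome 14, and a few mast cell transcripts moved with Gzmb and Gzmc. The summed level of 12 mast cell markers was 0.618 to 3.25 CPM in CD8b and 33.1 to 38.7 CPM in DN libraries. Only 3 of them were tested, and all 3 were higher. Each passed the filter only through its DN counts, so their direction was nearly set beforehand. Mcpt1, Mcpt2 and Tpsab1 were at 0 in all libraries. Kit, a receptor that mast cells and some lymphocytes carry, was at 1.21 and 14.7 CPM. The part of these transcripts in the granzyme results was not tested. Of 12 neutrophil and monocyte markers, the granule protease genes Elane, Prtn3, Mpo and Ctsg were at 0 in all libraries. Of the 5 in this list that were tested, Csf1r, for a receptor of macrophages, was higher, at 15.3 ± 3.78 and 28.3 ± 9.20 CPM (adjusted p = 0.0260), and Lyz2, for lysozyme, was at 63.2 ± 21.7 and 81.7 ± 28.9 CPM (0.646). The summed level of the list was 60.7 to 124 and 80.5 to 165 CPM, and its part in the granzyme results was not tested. Of 6 B and plasma cell markers, 1 was higher and 1 lower, against 7.84% and 5.99% of all tested genes. Their summed levels were 170 to 246 and 272 to 316 CPM, and their part was not tested either.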

How the data were processed

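Bulk RNA was measured in 6 libraries. The values deposited by the authors are expected counts (estimated counts per gene, not all whole), as the values themselves show. The labels' protocols name the RNeasy Micro column and the Tecan Solo mouse kit. The submitters' processing notes list mm10 and Cell Ranger 7.1.0, a tool for single cells. For the bulk libraries the aligner, counter, annotation and use of strand were not given in the sources used here. All 55450 gene IDs and symbols matched GENCODE M21.

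Counts were rounded and tested with edgeR 4.0.16 in R 4.3.3 (robust quasi-likelihood, TMM, group alone, all 6 libraries) on 13171 genes that passed filterByExpr (minimum count 10, minimum total 15). The threshold was a two-sided adjusted p of 0.05. Shares and ratios used counts within a library and exact permutation tests, with Benjamini-Hochberg adjustment over 5 shares and 7 ratios. The share denominator was every gene whose symbol begins with Gzm (10 genes). Library size set 1 count at 0.0722 to 0.130 CPM. The fit was run on simulated data with known fold changes, all of them smaller than those of Gzmc, Gzmk, Gzmm and Serpinb9b. Libraries of one group differed by at least 9.16 chi-square units per degree of freedom, so none was a copy.

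The members and lists were chosen with earlier results of these data known. The naming rule took the members, other Gzm genes with a count, and up to 4 called genes per list by size of change where the higher mean was 5 CPM or more. Other genes, and the neighbour window, were chosen after their values were seen. Alternatives were RLE, upper-quartile and library-size scaling, DESeq2 1.42.0, limma-voom 3.58.1, other filters, a non-robust fit, the replicate block and each library left out. Single-cell libraries were not analysed here.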

Additional observations from a re-analysis of the deposited data

How the results depend on the processing

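Of the 10 genes, 9 kept their call or lack of one under all 16 alternatives, and only Srgn lost it, without CD8b replicate 1. With each library left out in turn, 6 to 7 of the genes were called higher and 2 lower. Over all genes, 681 to 1093 were then higher and 499 to 883 lower, with both lowest counts without CD8b replicate 1. Fewer libraries entered those fits. The labels do not say that replicate numbers pair libraries, and they were not taken to: same-numbered libraries had correlations of −0.05, 0.189 and 0.256 between their deviations. Libraries numbered 2 and 3 correlated best with their own number and those numbered 1 did not, which is a hint from the data and not the design. With the replicate block, 7 and 2 of the 10 genes and 1137 and 945 of all genes were higher and lower. The share difference of Gzma was 24.7 percentage points per exon length and 25.1 per longest transcript, and that of Gzmb was −7.74 and −7.13. These differ from shares of counts by construction. No direction turned. Of 25 called genes of the related lists, 15 kept their call under every alternative and 10 lost it under at least 1, among them Stxbp2, Ndst1, Prdm1 and Zfp683. Scaling or the non-robust fit ended the calls of Calr, Prdm1 and Zfp683, and leaving out a library ended those and the other 7. Depth limits Gzmc in CD8b and Gzmm in DN libraries most, where single libraries had as few as 1 and 12 counts.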

Other observations

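The mast cell chymase gene Cma1, which lies outside the genes described and was singled out after its values were seen, had 2, 0 and 0 counts in CD8b and 146, 159 and 155 counts in DN libraries. The ratio of summed counts was 196 (exact 95% interval 53.9 to 1621, for counting error only). Both low counts lay in CD8b replicate 1, and with that library left out Cma1 was at least 98.4-fold higher (bound from 3 counts over the group). Fcer1a and Ms4a2, for chains of the mast cell IgE receptor, had at most 2 counts in any DN library and 0 in CD8b libraries. The carboxypeptidase gene Cpa3 had 0, 0 and 3 counts against 43, 20 and 8, so that it varied between DN libraries in which Cma1 was even.

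Genes within 250 kb of each granule gene were listed, with the window chosen after values were seen. Of 14 protein-coding genes near Gzmb, 9 had 0 counts in all libraries and 2 were tested, Gzmc and Mcpt4. Both were higher, but they passed the filter only through their DN counts, so their direction was nearly set beforehand. Mcpt4, for another chymase, had 0, 7 and 0 counts against 44, 22 and 28 (adjusted p = 0.0298 from edgeR). Of 11 near Serpinb9, 4 were tested and 2, Serpinb6b and Serpinb9b, were higher, as were 7.84% of all tested genes. Serpinb9b too passed the filter only through its DN counts. Of 6 tested near Gzma, Gpx8 was higher and Gzmk and Esm1 were lower, Esm1 with an adjusted p of 0.00516. Gpx8 passed the filter only through its DN counts and Esm1 only through its CD8b counts. Serpinb1b, another clade B serpin, had 0 counts in CD8b and 29 in DN libraries, which is at least 8.23-fold higher by the same bound.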
